A study of Mus musculus with 12 samples.

Results

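Fstl1, Kcnj15, BC018473, Fam241b, Myo10, Abcc5, Emilin1 and Plod3 are 8 of the 18193 genes measured in CD11c+ cells taken from the lungs of Pneumocystis-infected mice. They were selected on the arrays themselves: in each of them every IFNAR-/- array lay above every wildtype array at day 14 and again at day 7 after infection. IFNAR-/- arrays lay above wildtype arrays without overlap for 10.2% of all genes at day 14, for 12.4% at day 7 and for 1.32%, or 241 genes, on both days. The genotype differences of the 8 genes are therefore a description of how they were selected, and nothing is read from them as a test.

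The study asked whether type I interferon signalling starts in lung CD11c+ cells after Pneumocystis infection and whether it bears on the inflammatory response as clearance begins. All mice had received Pneumocystis through the trachea. The 4 groups were IFNAR-/- mice at day 14, wildtype mice at day 14, IFNAR-/- mice at day 7 and wildtype mice at day 7, with 3 mice in each, 1 array per mouse and no uninfected mice among the arrays. IFNAR-/- mice lack the receptor for type I interferons. Age, strain background and the construction of the mutant allele are not given in the sources used here. Lungs were digested with collagenase and DNase, and CD11c+ cells were drawn out with antibody-coated magnetic beads. Per the labels, some lymphocytes and unidentified cells remained.

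Type I interferons bind a receptor made of the IFNAR1 and IFNAR2 chains. The receptor's kinases JAK1 and TYK2 activate a transcription factor complex that holds IRF9 and binds interferon-stimulated response elements in promoters. In mouse lung, CD11c is carried by alveolar macrophages and by dendritic cells, so the sorted cells were a mixture of both. The 8 genes fall into several roles. Fstl1 encodes a secreted glycoprotein of the follistatin and SPARC family that antagonises bone morphogenetic proteins in mouse lung development. Emilin1 is an extracellular matrix glycoprotein of elastic fibres, and Plod3 is a lysyl hydroxylase that also adds sugars to collagen. Kcnj15 is the inwardly rectifying potassium channel Kir4.2, and Abcc5 is the efflux pump MRP5, which exports organic anions and cyclic nucleotides. Myo10 is an unconventional myosin that travels to the tips of filopodia. BC018473 is listed as a long non-coding RNA, and Fam241b is a protein-coding gene.

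Each deposited value behaves as a ratio of a probe set's signal to the median of the same probe set across all 12 arrays. It is used below as a log2 ratio, so 0 is that median and a difference of 1 is a doubling, and probe sets of a gene were averaged. Such a ratio does not keep brightness, so neither the levels of these genes relative to each other nor their distance from background is known. In bulk RNA of sorted cells, fewer cells of a type and less RNA per cell cannot be told apart. Of the 2 probe sets of Ifnar1, 1 lay between -0.63 and 0.00 in IFNAR-/- and between 0.23 and 0.88 in wildtype at day 14, and between -1.41 and -0.39 in IFNAR-/- and between -0.02 and 0.63 in wildtype at day 7. The other overlapped between genotypes at day 14 and at day 7. Whether either probe set lies in the deleted stretch is not known here. As a check of the genotype, 3 of 21 interferon-stimulated genes were lower in IFNAR-/- at day 14 and 12 of 21 at day 7 (limma, Benjamini-Hochberg adjusted p under 0.05), and 0 were higher.

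RefSeq promoter windows of assembly GRCm38.p6 matched 7 of the 8 genes. BC018473 had no window. Both strands of the 250 bases before the first listed start were searched, and 4 motifs are described. The interferon-stimulated response element, written here as GAAA, any 2 bases and GAAA, was present in Plod3, 25 to 16 bases before the start, and in 2.98% of all 32851 windows. The window of Plod3 is shown because it holds this motif of the interferon pathway, and that of Fstl1 because this gene was the most widely separated of the 8 and the window holds 2 GC boxes, GGGCGG. Capitals mark the motifs, and each sequence runs 5′ to 3′ on the strand of its gene. The windows are Plod3 at chr5:136986769-136987018 on the plus strand and Fstl1 at chr16:37776805-37777054 on the plus strand.
Plod3: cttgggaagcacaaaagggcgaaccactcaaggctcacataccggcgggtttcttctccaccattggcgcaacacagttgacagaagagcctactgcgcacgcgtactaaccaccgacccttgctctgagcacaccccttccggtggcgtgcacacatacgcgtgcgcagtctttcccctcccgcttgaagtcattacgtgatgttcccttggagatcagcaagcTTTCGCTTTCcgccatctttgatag
Fstl1: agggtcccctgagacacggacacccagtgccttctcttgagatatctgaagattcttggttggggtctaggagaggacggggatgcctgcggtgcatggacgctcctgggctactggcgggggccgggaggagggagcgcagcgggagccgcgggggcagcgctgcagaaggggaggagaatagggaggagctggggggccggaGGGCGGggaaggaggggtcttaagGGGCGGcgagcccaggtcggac

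The GC box was present in 2 of the 7 windows, Fstl1 and Myo10, and in 32.7% of all windows. Neither the AP-1 site TGANTCA nor the TATA box TATAAA was present in any of the 7, against 6.75% and 12.4% of all windows. The windows of the 7 genes held 53.2% to 68.0% G and C, with Fstl1 the highest and Kcnj15 the lowest, against a median of 52.4% over all windows. A match is a run of letters only, and no binding was measured.

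**Figure D1:**
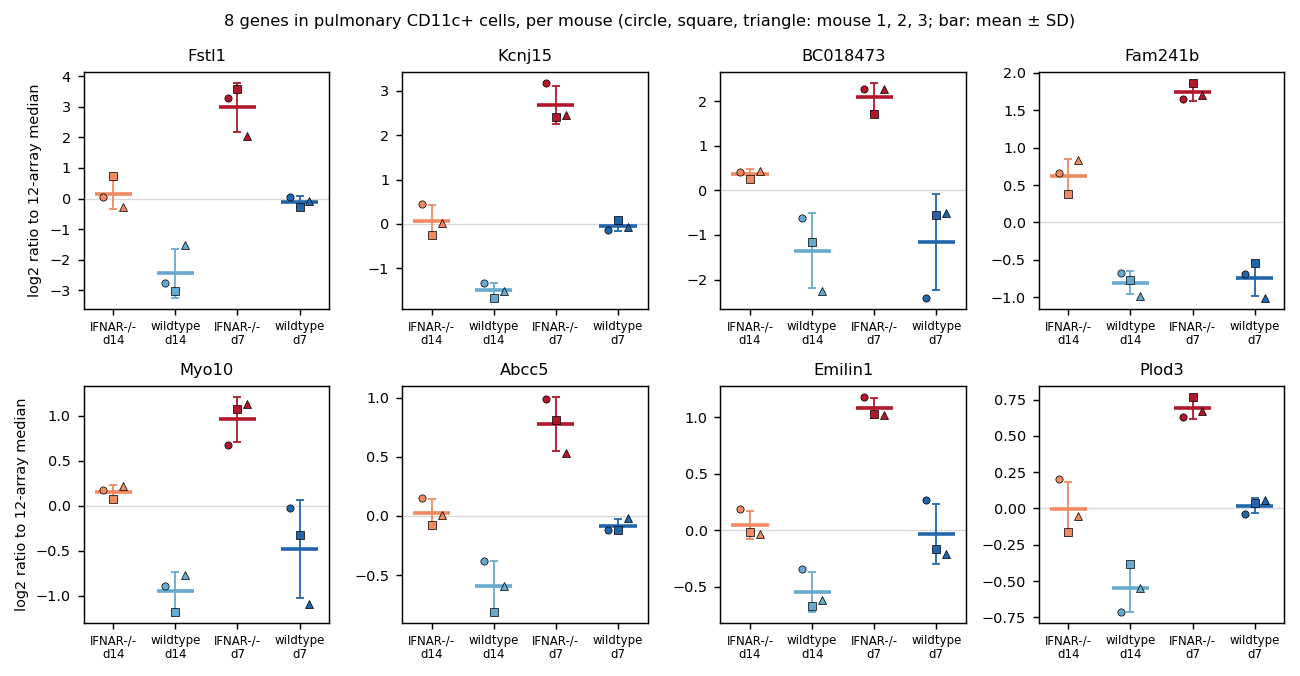
Log2 ratio to the 12-array median (vertical axis) of the 8 genes in every mouse, with IFNAR-/- left of wildtype at day 14 and then at day 7. Circles, squares and triangles are mice 1, 2 and 3, and bars are the mean and SD of 3 mice. The IFNAR-/- points lie above the wildtype points of the same day in all 8 panels, which is how the genes were selected.

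By the smaller of its gaps between genotypes, Fstl1 was the most widely separated of the 8 genes. At day 14 the 3 IFNAR-/- mice had log2 ratios of 0.04, 0.74 and -0.28, against -2.76, -3.03 and -1.53 in the 3 wildtype mice. At day 7 they had 3.28, 3.59 and 2.06 in IFNAR-/- and 0.06, -0.28 and -0.08 in wildtype. The gap between the lowest IFNAR-/- and the highest wildtype mouse was 1.24 at day 14 and 2.00 at day 7. The mean differences were 2.60 ± 0.44 at day 14 and 3.07 ± 0.44 at day 7 (SE of the fit), or 6.08-fold and 8.41-fold. Both Fstl1 probe sets showed the separation on both days, with day 14 differences of 2.58 and 2.63 and day 7 differences of 2.93 and 3.22.

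The matrix genes Emilin1 and Plod3 differed less and varied little between mice. Emilin1 stood at 0.19, -0.02 and -0.03 in IFNAR-/- mice of day 14, against -0.34, -0.67 and -0.62 in wildtype mice. The day 7 values were 1.18, 1.03 and 1.02 in IFNAR-/- and 0.27, -0.17 and -0.21 in wildtype. Neither day had an overlapping mouse, and the differences were 0.59 ± 0.14 at day 14 and 1.12 ± 0.14 at day 7. Plod3 had 0.20, -0.16 and -0.05 in IFNAR-/- and -0.71, -0.38 and -0.55 in wildtype at day 14. Its day 7 values were 0.63, 0.77 and 0.67 in IFNAR-/- and -0.04, 0.04 and 0.06 in wildtype. Plod3 had the smallest differences of the 8 genes, 0.54 ± 0.12 at day 14 and 0.67 ± 0.12 at day 7, and the smallest gap, 0.22 at day 14. It is measured by 1 probe set.

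The channel Kcnj15 was at 0.46, -0.26 and 0.02 in IFNAR-/- mice at day 14, against -1.32, -1.66 and -1.50 in wildtype mice. At day 7 it was at 3.18, 2.40 and 2.45 in IFNAR-/- and -0.14, 0.09 and -0.06 in wildtype. The wildtype mice of each day lay within a narrow band, with an SD of 0.17 at day 14 and 0.12 at day 7. The differences were 1.57 ± 0.22 at day 14 and 2.71 ± 0.22 at day 7, or 2.96-fold and 6.56-fold. Its 3 probe sets ran from 0.35 to 3.50 in the day 14 difference and from 2.02 to 3.49 in the day 7 difference, and 2 of the 3 kept the genotypes apart on both days. The pump Abcc5 had 0.15, -0.08 and 0.01 in IFNAR-/- and -0.38, -0.81 and -0.59 in wildtype at day 14. It had 0.99, 0.81 and 0.53 in IFNAR-/- and -0.12, -0.12 and -0.02 in wildtype at day 7. The genotypes did not overlap, with differences of 0.62 ± 0.14 at day 14 and 0.86 ± 0.14 at day 7.

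Abcc5 had 10 probe sets, the most of the 8 genes, and they did not behave alike. Singly, 5 kept the genotypes apart at day 14, 7 at day 7 and 4 on both days. Their differences ran from -0.15 to 1.30 at day 14 and from 0.15 to 1.28 at day 7, so that 1 probe set went the other way at day 14. Which transcripts the probe sets read is not given in the files.

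The filopodial motor Myo10 was at 0.17, 0.07 and 0.22 in IFNAR-/- mice at day 14, against -0.89, -1.18 and -0.77 in wildtype mice. Day 7 gave 0.67, 1.08 and 1.13 in IFNAR-/- and -0.03, -0.33 and -1.09 in wildtype. The wildtype mice of day 7 were the most scattered group, with an SD of 0.55, yet none reached the lowest IFNAR-/- mouse. The differences were 1.10 ± 0.23 at day 14 and 1.44 ± 0.23 at day 7. Of its 4 probe sets, 3 kept the genotypes apart on both days, and the differences ran from 0.38 to 1.57 at day 14 and from 0.41 to 2.11 at day 7.

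Fam241b, read by 1 probe set, had 0.66, 0.38 and 0.83 in IFNAR-/- and -0.68, -0.77 and -0.98 in wildtype at day 14. At day 7 it had 1.65, 1.87 and 1.70 in IFNAR-/- and -0.69, -0.55 and -1.01 in wildtype. The wildtype mice of both days overlapped, while the IFNAR-/- mice of the 2 days stood apart from each other and from wildtype. The differences were 1.43 ± 0.15 at day 14 and 2.49 ± 0.15 at day 7, or 2.70-fold and 5.61-fold.

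The non-coding RNA BC018473 had 0.41, 0.26 and 0.44 in IFNAR-/- mice at day 14, against -0.63, -1.16 and -2.26 in wildtype mice. Its day 7 values were 2.28, 1.72 and 2.27 in IFNAR-/- and -2.41, -0.56 and -0.52 in wildtype. The IFNAR-/- mice were close together, with an SD of 0.10 at day 14 and 0.32 at day 7. The wildtype mice were scattered, with an SD of 0.83 at day 14 and 1.08 at day 7. That scatter lay mostly in 1 of its 2 probe sets, at -4.45 to -0.97 in wildtype mice of day 14 and -4.65 to -0.87 at day 7. The other was at -0.29 to -0.06 at day 14 and -0.26 to 0.09 at day 7 in the same mice. The differences were 1.72 ± 0.49 at day 14 and 3.25 ± 0.49 at day 7. Its 2 probe sets gave day 14 differences of 0.23 and 3.21 and day 7 differences of 1.40 and 5.11, so the size of its difference depends on the probe set, though both kept the genotypes apart on both days.

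**Figure D2:**
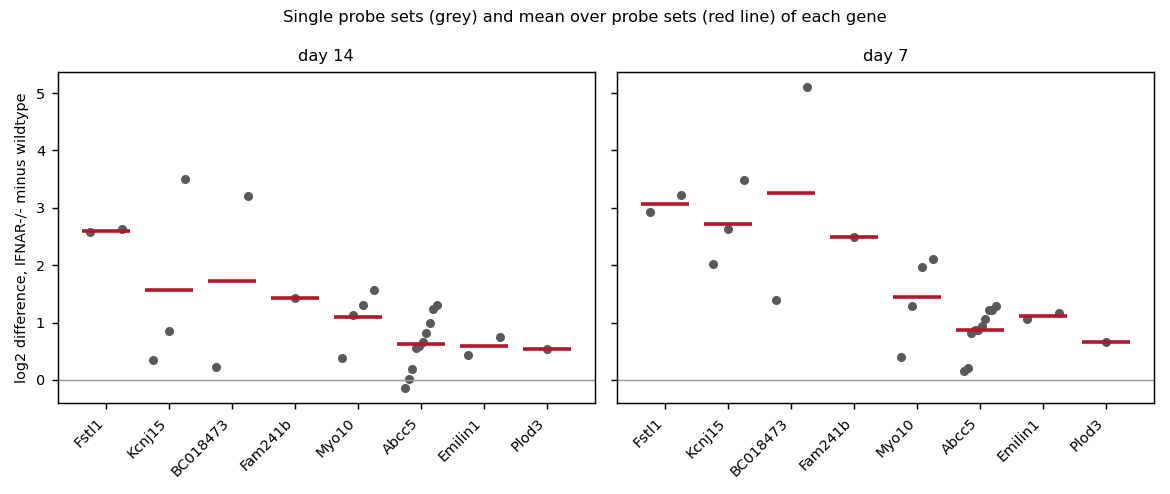
Log2 difference, IFNAR-/- minus wildtype (vertical axis), of every single probe set (grey points) and of the gene's mean over its probe sets (red lines), at day 14 (left) and day 7 (right). Of the 25 probe sets, all but 1 of Abcc5 at day 14 lie above 0, and those of Kcnj15 at day 14 and of BC018473 at day 7 spread the widest.

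Across the 8 genes the day 14 difference was smaller than the day 7 difference in each, with medians of 1.27 at day 14 and 1.97 at day 7, against medians of 0.00 on both days over all 18193 genes. Of the 25 probe sets, 19 kept the genotypes apart at day 14, 21 at day 7 and 17 on both days. In the fit across all genes, 7 of the 8 passed an adjusted p of 0.05 as higher in IFNAR-/- at day 14, all but BC018473, against 1.75% of all genes. At day 7 all 8 passed, against 1.29% of all genes. As lower in IFNAR-/-, 0 of the 8 were called, against 3.29% of all genes at day 14 and 1.35% at day 7. These shares give the background of the contrasts that selected the genes and carry no further reading. By the smaller of its 2 gaps, Fstl1 ranked 2, Kcnj15 3, Fam241b 4, BC018473 6, Myo10 10, Emilin1 31, Abcc5 32 and Plod3 49 among the 241 genes. At the edge, Icosl was inside the rule by a gap under 0.01 and 1700011B04Rik was just outside it.

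The rule compared genotypes within a day and did not use the change with time averaged over the genotypes, so that change was tested. The test is still not free of the rule. A rule of no overlap on the same arrays favours genes with little spread within groups, and that spread enters the test. The share over all genes given below is therefore not a like background, and the share among the 241 genes that meet the rule was not taken. Fstl1 fell the most: its mean over both genotypes was lower at day 14 than at day 7 by a log2 difference of -2.57 ± 0.31 (adjusted p = 0.000525, limma over all genes, two-sided), which is 5.96-fold. Kcnj15 fell 4.08-fold, by -2.03 ± 0.16 (limma adjusted p = 9.7e-05). The matrix genes fell too, Emilin1 by -0.77 ± 0.10 (limma adjusted p = 0.000791) and Plod3 by -0.63 ± 0.08 (limma adjusted p = 0.000785). Abcc5 fell by -0.63 ± 0.10 (limma adjusted p = 0.00186), Fam241b by -0.59 ± 0.11 (limma adjusted p = 0.00419) and Myo10 by -0.64 ± 0.17 (limma adjusted p = 0.024). BC018473 gave -0.95 ± 0.35 and did not pass (limma adjusted p = 0.0852). Fitted singly, 1 of its probe sets passed at -0.66 (limma adjusted p = 0.0025). The other gave -1.24 and did not pass (limma adjusted p = 0.2452). So 7 of the 8 genes were lower at day 14, against 9.94% of all genes, and the median of the 8 was -0.70, against 0.03 over all genes, of which 44.9% lay below 0. The Myo10 call was lost without mouse 2 or mouse 3 of IFNAR-/- day 7, mouse 2 of wildtype day 14 or mouse 2 of wildtype day 7, with limma adjusted p up to 0.0577. After quantile normalization neither Myo10 nor Fam241b was called, and the change of Fam241b became -0.01. With a trended and robust variance prior Fam241b also missed the threshold (limma adjusted p = 0.0514).

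**Figure D3:**
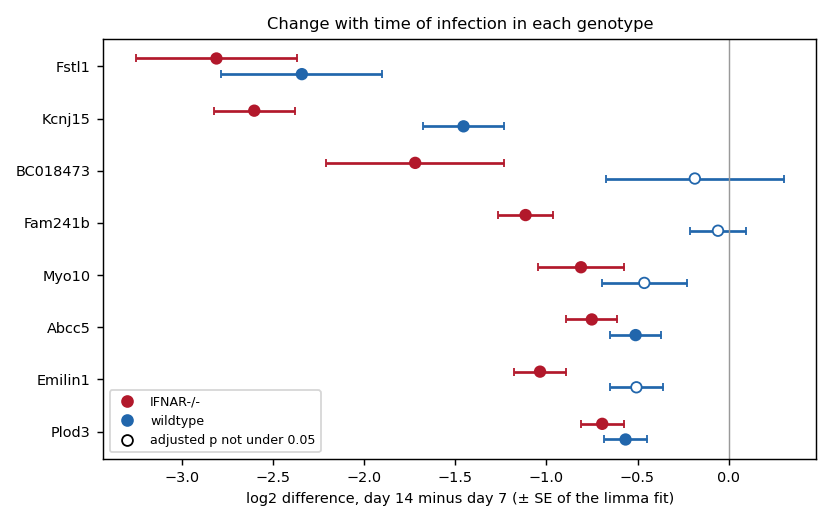
Log2 difference, day 14 minus day 7 (horizontal axis), of the 8 genes in IFNAR-/- mice (red, upper) and wildtype mice (blue, lower), with the SE of the fit. Filled points passed an adjusted p of 0.05. All 8 points are filled for IFNAR-/- and 4 are filled for wildtype.

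Within each genotype the test shares its arrays with the rule too and is not independent of it. In IFNAR-/- mice all 8 genes were lower at day 14 than at day 7, against 8.25% of all genes. The differences ran from -2.81 ± 0.44 for Fstl1 (limma adjusted p = 0.00302) and -2.60 ± 0.22 for Kcnj15 (limma adjusted p = 0.00017) to -0.69 ± 0.12 for Plod3 (limma adjusted p = 0.00439), with a median of -1.07. Between these lay BC018473 with -1.72 (limma adjusted p = 0.0425), Fam241b with -1.11 (limma adjusted p = 0.0016), Emilin1 with -1.03 (limma adjusted p = 0.00175), Myo10 with -0.81 (limma adjusted p = 0.0456) and Abcc5 with -0.75 (limma adjusted p = 0.00684). The 3 mice of day 14 lay below the 3 of day 7 without overlap for each of the 8. The share of all genes with this separation was not taken, so nothing is read from it. The calls of BC018473 and Myo10 were the weakest: leaving out any 1 of the 6 IFNAR-/- mice ended both. So did leaving out mouse 2 of wildtype day 14. The Myo10 call was also lost without mouse 1 or mouse 3 of wildtype day 14 or mouse 2 of wildtype day 7. Of 12 other settings, the BC018473 call held in 8 and the Myo10 call in 5. Fitted singly, the BC018473 probe sets gave -1.25 (limma adjusted p = 0.0012) and -2.19 (limma adjusted p = 0.1731). After quantile normalization the change of Fam241b became -0.60 and was not called.

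In wildtype mice 4 of the 8 genes were lower at day 14, against 4.1% of all genes. These were Fstl1, with -2.34 ± 0.44 (limma adjusted p = 0.01), Kcnj15, with -1.45 ± 0.22 (limma adjusted p = 0.00402), Plod3, with -0.57 ± 0.12 (limma adjusted p = 0.0156), and Abcc5, with -0.51 ± 0.14 (limma adjusted p = 0.0477). Fitted singly, the Kcnj15 probe sets gave -3.18 (limma adjusted p = 0.0002007), -0.95 (limma adjusted p = 0.1549) and -0.23 (limma adjusted p = 0.7926). Emilin1 gave -0.51 (limma adjusted p = 0.0556), Myo10 -0.46 (limma adjusted p = 0.283), BC018473 -0.19 (limma adjusted p = 0.878) and Fam241b -0.06 (limma adjusted p = 0.875). Without mouse 3 of wildtype day 7, Myo10 gave -0.77 and passed (limma adjusted p = 0.0348). The median of the 8 was -0.51, against 0.02 over all genes. The call of Abcc5 was lost with 8 of the 12 mice, each left out by itself, and that of Plod3 without mouse 2 or mouse 3 of wildtype day 7. Without mouse 2 of wildtype day 7, the number called was 2. The poly-A control probe sets, which follow labelling, were at -3.07 to -1.71 in the wildtype arrays of day 14 and at 0.74 to 1.91 in those of day 7, and with that signal as a covariate 0 of the 8 were called, with differences of -1.98 for Fstl1, -1.02 for Kcnj15, -0.47 for Plod3 and -0.20 for Abcc5. The control probe sets' 5′ over 3′ signal was at -0.91 to -0.18 at day 14 and 0.08 to 0.18 at day 7, and with it as a covariate only Fstl1 was called, at -3.39, while Kcnj15 gave -1.28, Plod3 -0.59 and Abcc5 -0.55. The part of labelling in the wildtype change cannot be told apart from time. At day 14 both signals also lay apart between the genotypes. In IFNAR-/- arrays of day 14, poly-A was at -1.54 to 0.15 and 5′ over 3′ at 0.06 to 0.16. With 5′ over 3′ as a covariate the day 14 genotype difference of BC018473 was 0.85, against 1.72 without it. That of Abcc5 was 0.66, against 0.62. The part of labelling in the day 14 genotype differences cannot be told apart from genotype.

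The 4 groups fell into 1 of 2 orders. Part of each order follows from the rule, which put IFNAR-/- above wildtype on each day. The share of all genes with either order was not taken. In all 8 genes IFNAR-/- mice of day 7 were the highest group without overlap. For Fstl1, Kcnj15, Abcc5, Emilin1 and Plod3, IFNAR-/- mice of day 14 and wildtype mice of day 7 overlapped in the middle and wildtype mice of day 14 were the lowest without overlap. The mean of IFNAR-/- day 14 minus that of wildtype day 7 was 0.26 ± 0.44 for Fstl1, 0.11 ± 0.22 for Kcnj15, 0.11 ± 0.14 for Abcc5, 0.08 ± 0.14 for Emilin1 and -0.02 ± 0.12 for Plod3, each within 1 SE of 0. For BC018473, Fam241b and Myo10, IFNAR-/- mice of day 14 lay above wildtype mice of day 7 without overlap, by 1.53 ± 0.49, 1.38 ± 0.15 and 0.63 ± 0.23, and the wildtype mice of both days overlapped. Over all genes, 24.3% had no overlap between IFNAR-/- day 14 and wildtype day 7 in either direction. These differences use arrays of the rule and were not tested.

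Between mice of the same group the 8 genes did not move as 1 block. After each group's mean was taken away, the 28 pairs of genes had a median Pearson r of 0.05 over the 12 arrays, and 17 pairs were above 0. The highest was Kcnj15 with Abcc5 at 0.75, and the lowest was BC018473 with Myo10 at -0.60. The mean over the 28 pairs was 0.04, against 0.00 over all pairs of genes. Arrays share their normalisation, and no test was made of these correlations.

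The gene with the most similar pattern was looked for among all other genes. By Pearson r over the 12 arrays, the gene most like Fstl1 was Spice1, a centriole protein (r = 0.96), and the one most like Kcnj15 was Agap1, a regulator of ARF GTPases (r = 0.97). Mt1, a metallothionein that binds zinc and copper, was the most alike to both Abcc5 (r = 0.97) and Emilin1 (r = 0.96). Plod3 was most like Ndufa4, a mitochondrial respiratory chain protein (r = 0.97), and Fam241b was most like Ppp1r9a, an actin-binding partner of protein phosphatase 1 (r = 0.93). Myo10 was most like Tex12, a synaptonemal complex protein (r = 0.93), and BC018473 was most like Bcat2, the mitochondrial branched-chain aminotransferase (r = 0.91). Once group means were taken away, r of these pairs ran from -0.22 for Fam241b with Ppp1r9a to 0.785 for Plod3 with Ndufa4. The likeness of Fam241b and Ppp1r9a thus rested on the group means, which the rule used. The likeness is of shape and not of size: Spice1 averaged -0.05 and -0.24 in IFNAR-/- and wildtype at day 14 and 0.21 and -0.03 at day 7, a far smaller range than that of Fstl1. To the mean of the 8 standardised genes the closest were Ptges, the inducible prostaglandin E synthase, Usp21, Abca3, Bend4 and St6galnac2, with r from 0.96 to 0.97. With group means taken away, r for these 5 ran from -0.38 for Usp21 to 0.80 for Bend4, so for some of them the likeness over 12 arrays rested on the group means.

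Position was a further feature that the rule did not use. Fstl1, Kcnj15 and Abcc5 lie on chromosome 16, which also carries Ifnar1, and 3.29% of the genes placed in the gene table lie there. BC018473 lies on chromosome 11, Fam241b on 10, Myo10 on 15, and Emilin1 and Plod3 on 5. Between Ifnar1 and Kcnj15 lie 38 measured genes, between Ifnar1 and Fstl1 203, and between Ifnar1 and Abcc5 354. Whether these mice carry chromosome 16 sequence of another strain around the mutant allele was not tested. Of the 5 measured genes on each side of each of the 8, 80 in all, 3 were higher and 1 was lower in IFNAR-/- at day 14 and 2 were higher at day 7, with median differences of 0.03 at day 14 and 0.02 at day 7. Over all genes 1.75% were higher and 3.29% lower at day 14 and 1.29% higher at day 7. IFNAR-/- arrays lay above wildtype arrays without overlap on both days for 4 of the 80, against 1.32% of all genes. These were 2 neighbours of BC018473, 1 of Fam241b and 1 of Abcc5. The counts are small and were not tested. Of the 99 measured genes around Ifnar1, 1 was higher and 1 lower at day 14 and 3 were higher at day 7: Mrap by 1.17 (limma adjusted p = 0.00858), Slc5a3 by 0.89 (limma adjusted p = 0.0212) and Mrps6 by 0.92 (limma adjusted p = 0.0347). None of the 10 neighbours of Kcnj15 or of the 10 of Fstl1 was called on either day. The day 14 calls were Klhl6, near Abcc5, higher by 1.27 ± 0.26 (limma adjusted p = 0.0221), Retreg1, near Myo10, higher by 0.84, Hk1, near Fam241b, higher by 0.75, and Mettl23, near BC018473, lower with -0.76. The day 7 calls were both next to BC018473.

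The measured genes on either side of BC018473 also had IFNAR-/- arrays above wildtype arrays on both days. St6galnac1 and St6galnac2 encode sialyltransferases that add sialic acid to O-linked sugar chains, and they do not overlap BC018473 in the gene table. St6galnac1 had 0.32, 0.15 and 0.01 in IFNAR-/- mice at day 14, against -0.07, -0.31 and -0.35 in wildtype mice. At day 7 it had 2.11, 2.16 and 1.77 in IFNAR-/- and -0.50, 0.00 and -0.13 in wildtype. The genotypes did not overlap on either day, and the difference passed at day 7 (2.22 ± 0.16, limma adjusted p = 7.41e-05) and not at day 14 (0.40 ± 0.16, limma adjusted p = 0.17). St6galnac2 had 0.22, 0.00 and 0.03 in IFNAR-/- and -0.22, -0.81 and -0.49 in wildtype at day 14. Its day 7 values were 1.28, 1.34 and 1.58 in IFNAR-/- and -0.37, -0.25 and 0.06 in wildtype. Again the genotypes did not overlap, and the difference was 0.59 ± 0.16 at day 14 (limma adjusted p = 0.0633) and 1.59 ± 0.16 at day 7 (limma adjusted p = 0.000587). Averaged over the genotypes both were lower at day 14 than at day 7, St6galnac1 by -0.94 ± 0.11 (limma adjusted p = 0.000448) and St6galnac2 by -0.82 ± 0.12 (limma adjusted p = 0.00106). By genotype, St6galnac1 changed by -1.85 in IFNAR-/- mice (limma adjusted p = 0.00017) and had -0.03 in wildtype mice (limma adjusted p = 0.939). St6galnac2 changed by -1.32 in IFNAR-/- mice (limma adjusted p = 0.00115) and had -0.32 in wildtype mice (limma adjusted p = 0.289). With group means taken away, the r with BC018473 was 0.60 for St6galnac1 and 0.45 for St6galnac2.

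**Figure D4:**
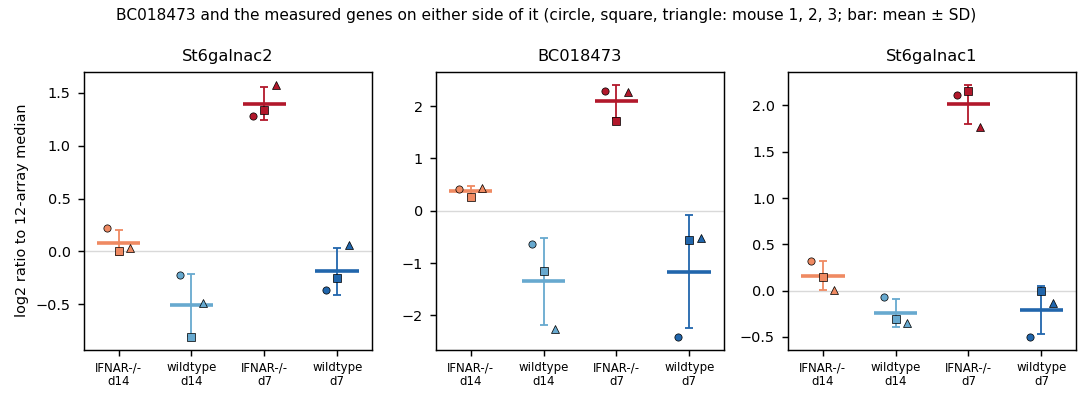
Log2 ratio to the 12-array median (vertical axis) of BC018473 and of the measured genes on either side of it in every mouse, with IFNAR-/- left of wildtype at day 14 and then at day 7. Circles, squares and triangles are mice 1, 2 and 3, and bars are the mean and SD of 3 mice. IFNAR-/- mice of day 7 are the highest group in all 3 panels.

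Relatives of the 8 genes were set beside them in 5 lists of family and pathway members. In these lists 0 genes had IFNAR-/- arrays above wildtype arrays without overlap on both days, against 1.32% of all genes, a share at which few would be met in lists of this size. Of 36 measured genes of collagen modification and elastic fibre assembly, the setting of Emilin1 and Plod3, 0 were called in either direction on either day, and their median difference was 0.15 at day 14 and 0.14 at day 7. Plod2, another lysyl hydroxylase, averaged -0.02 in IFNAR-/- and -0.30 in wildtype at day 14, and 0.61 in IFNAR-/- and 0.11 in wildtype at day 7, and did not pass on either day (limma adjusted p = 0.374 and 0.162). Of 37 genes of the follistatin family and bone morphogenetic protein or activin signalling, 2 were higher at day 14 and 1 at day 7. Id2, a target of bone morphogenetic protein signalling, was higher at day 14 by 1.09 ± 0.26 (limma adjusted p = 0.0398), as was the activin subunit Inhba by 0.81 ± 0.20 (limma adjusted p = 0.041), and the activin receptor Acvr2b was higher at day 7 by 0.50 ± 0.11 (limma adjusted p = 0.0429).

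None of 10 other genes of the ABCC transporter family and none of 14 other inwardly rectifying potassium channels was called on either day. Kcnj10, a related channel, had 0.58 ± 0.16 at day 14 (limma adjusted p = 0.0626), while its day 7 difference was -0.41 ± 0.16 (limma adjusted p = 0.252). Of 30 other unconventional myosins and filopodium proteins, 2 were higher and 1 lower at day 14, and 1 was lower at day 7. Vasp, an actin regulator at filopodium tips, was higher at day 14 by 1.00 ± 0.17 (limma adjusted p = 0.0104), and Fscn1, which bundles filopodial actin, by 1.02 ± 0.19 (limma adjusted p = 0.0151). Myo5a was lower at day 14 by a log2 difference of -1.01 ± 0.20 (limma adjusted p = 0.0207), and Myo1e was lower at day 7 by -1.26 ± 0.13 (limma adjusted p = 0.000587).

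Markers of the cells that the sort could hold also differed between the groups, and not all in the direction of these genes. Over 13 measured alveolar macrophage markers, the mean log2 ratio of the 3 mice was between -0.80 and 0.01 in IFNAR-/- and between -1.54 and -0.76 in wildtype at day 14, and between 0.81 and 0.97 in IFNAR-/- and between -0.23 and 0.66 in wildtype at day 7. So the list was highest in IFNAR-/- mice of day 7, as the 8 genes were, and the genotypes overlapped at day 14. Of the 13, Marco and Krt79 were higher in IFNAR-/- at day 14 and 0 at day 7, 3 had genotypes apart on both days, against 1.32% of all genes, and 9 were lower at day 14 than at day 7 averaged over genotypes, against 9.94% of all genes. The median time difference of the 13 was -1.16. Their median genotype difference was 0.22 at day 14 and 0.57 at day 7, but the list was split. At day 14 Fabp4 gave -1.24, Mrc1 -0.90, Abcg1 -0.23 and Atp6v0d2 -0.17, and at day 7 Car4 gave -0.55. None of these 5 values was called. Of 11 neutrophil markers, 2 had genotypes apart on both days, as did 1 of 17 lung epithelial markers. The median genotype difference of the neutrophil markers was 0.43 at day 14 and 0.45 at day 7. Of these, S100a8 was higher in IFNAR-/- at day 7 by 1.81 ± 0.39 (limma adjusted p = 0.0341), and 0 were called at day 14. Marco, a scavenger receptor of alveolar macrophages, averaged 0.18 in IFNAR-/- and -3.41 in wildtype at day 14 and 2.16 in IFNAR-/- and 0.10 in wildtype at day 7. Itgax, which encodes CD11c itself, averaged 0.02 in IFNAR-/- and -0.20 in wildtype at day 14 and 0.03 in IFNAR-/- and 0.01 in wildtype at day 7, and its differences did not pass. The 14 dendritic cell markers ran the other way at day 7, from -0.65 to -0.30 in IFNAR-/- and from 0.02 to 0.50 in wildtype, with 8 of them lower in IFNAR-/-, and 3 were higher in IFNAR-/- at day 14. Lymphocyte and monocyte markers were higher in IFNAR-/- at day 14. The mean of 11 T cell markers was 0.25 to 0.99 in IFNAR-/- and -0.37 to -0.02 in wildtype, with 5 called higher, that of 9 NK cell markers 0.09 to 1.02 in IFNAR-/- and -0.52 to -0.01 in wildtype, with 2 called higher, and that of 7 monocyte markers 0.06 to 0.20 in IFNAR-/- and -0.42 to -0.16 in wildtype, with 2 called higher. At day 7 the T cell markers were at -0.70 to -0.31 in IFNAR-/- and -0.14 to 0.47 in wildtype, where the 8 genes were higher in IFNAR-/-. NK cell markers were then at -0.645 to -0.299 in IFNAR-/- and 0.168 to 0.582 in wildtype. Of the 7 monocyte markers, 2 were called lower in IFNAR-/- at day 7. The part of the shares of these cells in the results for the 8 genes was not tested.

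**Figure D5:**
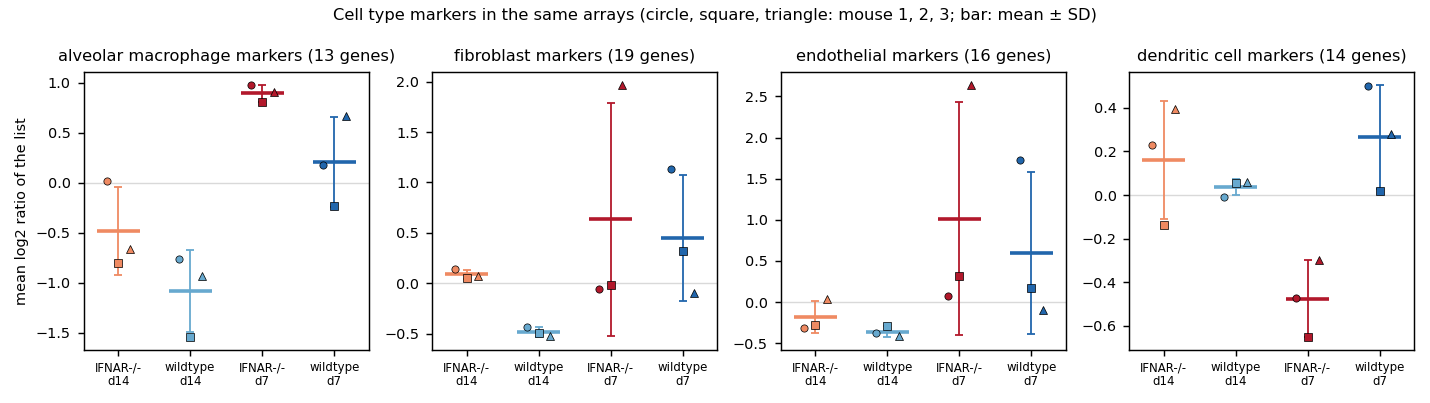
Mean log2 ratio (vertical axis) of the markers of 4 cell types in every mouse, with IFNAR-/- left of wildtype at day 14 and then at day 7. Circles, squares and triangles are mice 1, 2 and 3, and bars are the mean and SD of 3 mice. Alveolar macrophage markers are highest in IFNAR-/- mice of day 7, and dendritic cell markers are lowest there.

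Fstl1, Emilin1 and Plod3 are also known from connective tissue cells, so markers of these were set beside them. The mean of 19 fibroblast markers was 0.14, 0.05 and 0.07 in IFNAR-/- mice and -0.43, -0.50 and -0.53 in wildtype mice at day 14. It was -0.05, -0.02 and 1.97 in IFNAR-/- mice and 1.13, 0.32 and -0.10 in wildtype mice at day 7. Mouse 3 of IFNAR-/- day 7 and mouse 1 of wildtype day 7 had the most fibroblast signal, and also the highest endothelial means, 2.65 and 1.73, and epithelial means, 1.91 and 1.67. Fstl1 was the lowest of its group in the IFNAR-/- mouse, at 2.06, and the highest of its group in the wildtype mouse, at 0.06. Emilin1 was the lowest of its group in the IFNAR-/- mouse, at 1.02, and the highest in the wildtype mouse, at 0.27. Plod3 was in the middle of its group in the IFNAR-/- mouse, at 0.67, and the lowest in the wildtype mouse, at -0.04. With both mice left out, an alternative chosen after seeing the data, 7 of the 8 genes were lower at day 14 than at day 7 averaged over the genotypes, 7 in IFNAR-/- and 2 in wildtype. The genes called were not the same as with all mice. Myo10 was no longer called averaged over the genotypes or in IFNAR-/-, and BC018473 was now called averaged over the genotypes. At day 14 fibroblast markers and the 8 genes were both lower in every wildtype mouse than in every IFNAR-/- mouse. So were the means of neutrophil, B cell, T cell, NK cell, monocyte, epithelial, and smooth muscle and pericyte markers. The neutrophil means were 0.153 to 0.175 in IFNAR-/- and -0.447 to -0.112 in wildtype. Of the 19 fibroblast markers, 1 was called higher at day 14, Thy1 by 1.91 ± 0.46 (limma adjusted p = 0.0388). At day 7 Thy1 gave -1.64 (limma adjusted p = 0.0978). The medians of the T cell markers also changed sign, 0.84 at day 14 and -0.57 at day 7. Those of the fibroblast markers did not, 0.42 at day 14 and 0.20 at day 7. The part of fibroblasts or of any of these cells in the difference of the 8 genes was not tested.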

How the data were processed

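RNA of pulmonary CD11c+ cells from 12 single mice was hybridised to Affymetrix mouse arrays, 1 array per mouse. The submitters' processing notes name RMA, with no version. The deposited values are ratios on a linear scale. No source states what they are relative to. The median of a probe set across the 12 arrays lay within 0.02 of 1 for 100% of probe sets, which is why the values were read as relative to it. The log2 of the deposited ratios was analysed and not normalized again. Brightness over background is therefore not known, and precision is limited by having 3 arrays a group.

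Of 45101 probe sets, 34945 carried 1 gene symbol and were averaged into 18193 genes, of which 18032 matched the gene table of GRCm38.p6. Probe sets with several symbols or none (932 and 9160) and 64 control probe sets were left out, with no filter on low values, and 0 value columns were left without a sample. The unit of the files allowed neither a filter on dim probe sets nor a choice of the brightest probe set.

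Every gene was fitted with 4 group means in limma 3.58.1 in R 4.3.3, with 8 residual degrees of freedom, a prior of 3.21 and a prior SD of 0.171. Tests were two-sided, adjusted by Benjamini-Hochberg over 18193 genes, with 0.05 as the threshold. Fold changes are powers of 2 of the log2 differences. The test was tried on simulated data with known changes. Per the labels the replicates are separate mice.

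The 8 genes and all lists were chosen with earlier results of these data known. Genes outside the 8 were named by a rule: the most alike by Pearson r, up to 3 genes of each list with the lowest p over both days, neighbours called at either day with the lowest p, Ifnar1, and the genes at the edge of the selection. Itgax, Inhba, Fscn1, Retreg1, Hk1, Mettl23, Fabp4, Mrc1, Abcg1, Atp6v0d2, Car4 and Thy1 were named after their values were seen. A further promoter motif is not reported here. Alternatives were another normalization, probe sets singly, other variance priors, array weights, control signals as covariates, the mouse number as a block, and leaving out mice.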

Additional observations from a re-analysis of the deposited data

How the results depend on the processing

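After quantile normalization 8 genes had genotypes apart on both days, and 7 with the probe set of largest SD; leaving out mice cannot end a separation and is no check of it. Averaged over genotypes, 7 of 8 were lower at day 14, from 6 to 8 with 1 mouse left out, 6 with a trended and robust variance prior, 6 without IFNAR-/- mouse 3 of day 7 and mouse 2 of day 14, which earlier results set apart, and 2 when a 2-fold change was asked for. In IFNAR-/- the 8 calls became 5 after quantile normalization, 5 with the probe set of largest SD and 5 at 2-fold, and 6 to 8 with 1 mouse left out. In wildtype the 4 calls became 1 after quantile normalization, 1 when the 5′ over 3′ control signal was a covariate, 0 when the poly-A signal was, 2 at 2-fold, 2 without IFNAR-/- mouse 3 and wildtype mouse 1 of day 7 (added after seeing the data), and 2 to 5 with 1 mouse left out. The cause was not tested. The directions that reversed were not called. The Abcc5 probe set that went the other way gave -0.15 for the day 14 genotype difference, and 0.10 averaged over genotypes and 0.25 in wildtype for day 14 minus day 7. The wildtype change of BC018473 was 0.74 after quantile normalization, 0.68 with 5′ over 3′ and 0.26 with poly-A, and -0.81 to 0.27 with 1 mouse left out. That of Fam241b was 0.57, 0.016 and 0.05, and -0.188 to 0.039. Mouse numbers did not pair the samples: of 18 pairs, 3 had r over 0.1 (-0.40 to 0.23). With the mouse number as a replicate block, 7 genes were called averaged over genotypes, 6 in IFNAR-/- and 5 in wildtype.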
